A study of Mus musculus with 3 samples.

Results

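The bone morphogenetic protein (BMP) and transforming growth factor beta (TGF-β) pathway was described here in sorted macrophages of mouse backskin, through 42 genes for its ligands, receptors, antagonists, Smads, and Id genes. These genes were chosen by name for their place in the pathway. All 42 were among the 19752 genes that the array names through a RefSeq transcript, and 54 probes represented them.

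The study followed macrophages of the skin through telogen, the resting phase of the hair follicle, up to the onset of new growth. Cells positive for CD11b and F480 and negative for Gr1 were isolated by fluorescence activated cell sorting from mice of the CD1 background on postnatal day 42 (P42, early telogen), day 55 (P55, mid telogen), and day 69 (P69, late telogen), with no treatment in any group. For early telogen the study's text gives a slightly later day than the label of the array, and the label is used here. RNA of 3 littermates was pooled for each age, carried through a whole-transcriptome amplification, and measured in the Cy3 channel of 1 array per age. The 3 arrays thus carry no biological replicate, no test between ages was possible, and all differences below compare single arrays of pooled RNA.

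TGF-β and activin ligands bind type II and type I receptors that phosphorylate Smad2 and Smad3, while BMP ligands act mainly through Smad1, Smad5, and Smad9. Smad4 joins both branches, and Smad6 and Smad7 inhibit them. In the skin, BMP signals are known to hold the stem cells of the follicle at rest, antagonists such as noggin relieve this brake, and TGF-β2 from the dermal papilla is known to help the follicle leave telogen.

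Each level is the log2 signal of a probe relative to the 75th percentile of its array, so that 0 stands for a probe at that percentile. A gene with several probes is given by its brightest one, and levels of different probes are not set against each other. A probe was taken as detected when the scanner software called it well above background. Where only 1 of the 2 arrays detected it, the difference is a bound and is written "at least". A difference of 2-fold or more, which is 1 on the log2 scale, is called higher or lower. The arrays detected 71.4% (P42), 59.6% (P55), and 68.7% (P69) of 55681 probes. The only measured error was that of repeated spots of the same probe, which gave a technical SD of 0.17 for a log2 difference from P42 on either later array. On single arrays the SD of repeated spots was 0.24, 0.23, and 0.18 for dim probes (level of -2 or less) at P42, P55, and P69. For bright probes (level over 0) it was 0.08, 0.08, and 0.10. The SD of 0.17 is thus too small for dim members, and it leaves out differences between mice, sorts, and amplifications.

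The deposited table of processed log2 values pairs the P55 and P69 data with the labels in the opposite way to the scanner files. Its P55 column differed from the scanner file of P69 with a residual SD of 0.0044 on the log2 scale, against 1.29 for the scanner file of P55, over 36396 and 36390 probes. Which assignment is right could not be settled, and the scanner files are used as labeled. With the other assignment, every value given below for P55 belongs to P69 and the reverse, and a member called higher or lower on both later arrays keeps that call.

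The sorted cells carried the macrophage genes that the gate selects for. All 15 measured macrophage markers, among them Adgre1, Itgam, and Csf1r, were detected on every array, with a summed linear signal of 1120, 1082, and 699.5 times the 75th percentile at P42, P55, and P69, and 2 of them were lower at P55 and 3 at P69. Markers of other skin cells were present too, and some of them moved with age. Of 15 keratinocyte markers, 13 were at least 2-fold higher on both later arrays, with a median log2 difference of 3.29 at P55 and 3.09 at P69. Their summed signal was 282, 427, and 295, and without Trp63, which was set aside after its values were seen, it was 20.0, 164, and 132. Cdh3 was the one marker of this list below background at P42. The 4 measured Langerhans and dendritic cell markers summed to 18.4, 129.5, and 74.2, a sum carried by Cd207 (3.78, 6.76, and 5.90) and Itgax (1.58, 4.31, and 3.76). The other 2 were highest at P42, with Flt3 at 0.63, -0.10, and -0.295 and Xcr1 at -2.39, -2.42, and -3.30. In a bulk sample, fewer cells of a type and less RNA per cell cannot be told apart, and the part of these other cells in the differences below was not tested.

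Of the 42 members, 35 were detected at P42, 34 at P55, and 39 at P69, and 33 were detected on all 3 arrays. Inhibin alpha (Inha), the BMP type I receptor Bmpr1b, and the pseudoreceptor Bambi were detected on none. A difference from P42 could be given for 36 members at P55 and for 37 at P69. At P55, 8 of the 36 members (22.2%) were higher and 5 (13.9%) were lower, against 29.1% higher and 16.9% lower among all 15843 genes with a value. At P69, 12 of the 37 (32.4%) were higher and 4 (10.8%) were lower, against 22.2% and 20.7% of 16164 genes. With this scaling, the share of members that were higher was thus below that of all genes at P55 and above it at P69. Neither difference was tested. The median log2 difference of the members was 0.24 at P55 (all genes, 0.22) and 0.41 at P69 (all genes, 0.15). Both comparisons share the P42 array.

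**Figure D1:**
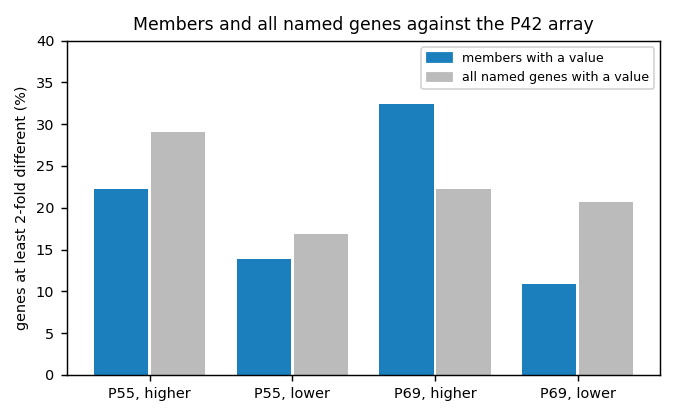
Share of genes at least 2-fold different from the P42 array (vertical axis, percent), for pathway members (blue, 36 genes at P55 and 37 at P69) and for all named genes with a value (gray, 15843 and 16164 genes). The blue bar for higher genes is the shorter one at P55 (22.2% against 29.1%) and the taller one at P69 (32.4% against 22.2%), and both blue bars for lower genes are the shorter ones. No test stands behind these differences, and the order for higher genes at P55 was reversed under another scaling of the arrays.

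These counts moved with the scaling of the arrays. The difference from P42 of the median gene ranged over 5 scalings from -0.16 to 0.86 at P55 and from -0.06 to 1.32 at P69. With the 75th percentile taken only over probes detected on all arrays, 8 of 36 members were higher and 8 lower at P55 (all genes, 19.3% and 25.7%). The share of higher members at P55 was then above that of all genes, not below it. With the median of each array set equal, 15 were higher and 1 lower at P55 (all genes, 46.1% and 7.83%) and 16 higher and 2 lower at P69 (38.6% and 10.3%). With no scaling 26 of 39 were higher and 2 lower at P69 (60.3% and 3.61%). With the normexp background correction 8 of 36 were higher and 4 lower at P69 (15.8% and 20.1%). The sign of 12 members at P55 and of 13 at P69, each under 2-fold with the scaling used here, differed between scalings. None of the 29 differences of 2-fold or more described below changed sign with the scaling.

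Of the 36 members with a value on both later arrays, 7 (19.4%) were higher on both and 1 (2.78%) was lower on both, against 16.6% and 11.3% of 15602 genes. The former were the receptors Tgfbr1, Acvr2b, and Bmpr1a, the antagonist Sostdc1, Smad2, Smad7, and Id2, and the latter was chordin (Chrd). Another 5 differed by 2-fold or more at P55 alone, 8 at P69 alone, and 15 on neither array. The shares of all genes in these last sets were not counted, so these counts show nothing particular to the members.

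**Figure D2:**
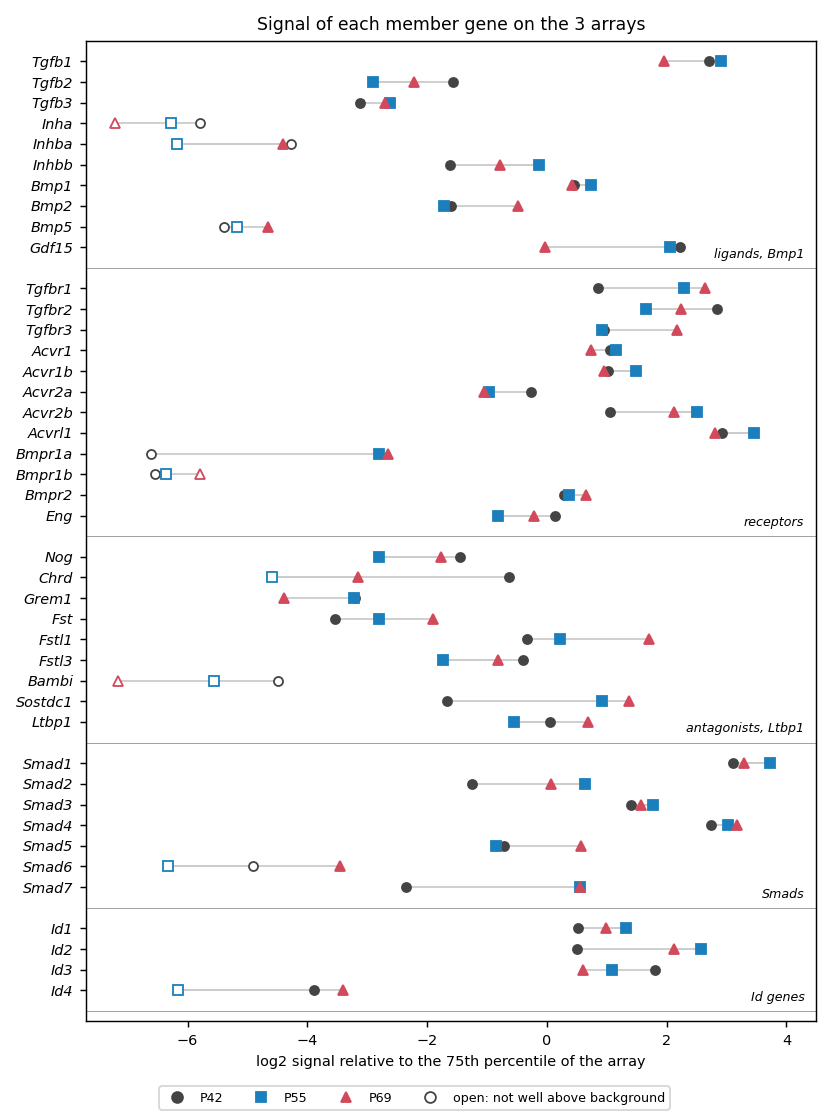
Level of each of the 42 members on the P42 (gray circles), P55 (blue squares), and P69 (red triangles) arrays, as log2 signal relative to the 75th percentile of the array (horizontal axis), grouped by role. Open symbols mark signals not well above background. Sostdc1, Smad7, Smad2, Id2, Tgfbr1, and Acvr2b lie lowest at P42, and Chrd lies highest there.

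Among the ligands, Tgfb1, the main TGF-β of immune cells, had levels of 2.70 at P42, 2.90 at P55, and 1.96 at P69. It was thus lowest at P69, but by less than 2-fold from P42 (log2 difference -0.74). Tgfb2 was at -1.58, -2.90, and -2.22, which was 2.51-fold lower at P55 and 1.56-fold lower at P69. The difference at P55 was under 2-fold with quantile normalization (-0.89 on the log2 scale), the median of each array (-0.77), and normexp (-0.80). The dimmer Tgfb2 probe was at -3.25 at P42 and -3.16 at P69 (log2 difference 0.09) and below background at P55. The direction of Tgfb2 at P69 thus differed between the probes. Tgfb3 was at -3.12, -2.62, and -2.71 and stayed under 2-fold.

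Gdf15, a stress-induced member of the TGF-β superfamily, was at 2.22 at P42, 2.05 at P55, and -0.03 at P69. The P42 and P55 arrays differed by little more than 1 technical SD, and P69 was 4.74-fold lower than P42. Of the 14162 genes measured on both arrays, 235 were lower by more. Bmp2, a BMP made by follicle and dermal cells, was at -1.60, -1.71, and -0.49. It was higher at P69 alone (2.16-fold), but under 2-fold with the percentile of commonly detected probes (log2 difference 0.91) and with normexp (0.82). Inhbb, which encodes the activin B subunit, was at -1.61, -0.14, and -0.79 and was highest at P55 (2.78-fold over P42). The difference at P69 was 0.83. Bmp1, a protease that cleaves procollagen and chordin and is a BMP only in name, was at 0.46, 0.73, and 0.42 with little difference between the arrays. Its other probe differed in the same directions (0.24 and -0.08). Inhba and Bmp5 were detected at P69 alone, at -4.41 and -4.66, too close to the floor of the other arrays for a fold.

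Of 12 receptor genes, 11 were detected, and 3 of them were higher at both later ages, against 16.6% of all 15602 genes. Tgfbr1, the type I receptor for TGF-β, was at 0.85 at P42, 2.29 at P55, and 2.64 at P69. This was 2.71-fold and 3.47-fold higher than P42. Its dimmer probe differed the same way, by 0.68 and 1.02 on the log2 scale. Acvr2b, a type II receptor for activins, was at 1.05, 2.51, and 2.12, or 2.76-fold and 2.10-fold higher. At P69 this was close to the limit, and 0.86 to 0.92 on the log2 scale with the percentile over commonly detected probes and with quantile normalization. Bmpr1a, a type I receptor for BMPs, was below background at P42 and at -2.80 and -2.65 later. It was at least 3.11-fold higher at P55 and at least 3.46-fold higher at P69. Bmpr1a is dim on all 3 arrays, its bounds rest on the floor of the P42 array, and with normexp they were 0.94 and 0.62 on the log2 scale, both under 2-fold.

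The sequence before an annotated transcript start of Bmpr1a is shown because this gene passed from below background to detection. It spans the 250 bases at chr14:34502547-34502796 of GRCm38.p6 (minus strand, from RefSeq), inside the full annotated locus at chr14:34411061-34503336, so other transcripts start farther upstream. Capitals mark GGCGCC, a GC-rich word that BMP Smads are known to bind:

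Bmpr1a: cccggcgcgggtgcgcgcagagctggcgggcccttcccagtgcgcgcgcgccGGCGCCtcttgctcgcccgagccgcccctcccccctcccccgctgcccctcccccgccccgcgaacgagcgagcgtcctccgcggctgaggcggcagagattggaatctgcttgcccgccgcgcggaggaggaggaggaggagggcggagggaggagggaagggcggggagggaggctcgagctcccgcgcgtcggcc

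Another 2 receptors differed on 1 later array. Tgfbr2, the type II receptor for TGF-β, was at 2.84, 1.65, and 2.25, which was 2.29-fold lower at P55. The other Tgfbr2 probe was at 1.28, 1.56, and 1.88 and gave log2 differences of 0.28 and 0.60, opposite to -1.19 and -0.60 of the brighter probe. No direction can therefore be given for Tgfbr2. Tgfbr3, the co-receptor betaglycan, was at 0.95, 0.91, and 2.17, higher at P69 alone (2.33-fold).

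The type I receptors Acvr1 and Acvr1b, the type II receptors Acvr2a and Bmpr2, and Acvrl1 and endoglin (Eng), which serve TGF-β and BMP9 signaling in vessels, stayed under 2-fold on both arrays. Acvrl1 was at 2.93, 3.46, and 2.81. Eng was at 0.13, -0.82, and -0.22, close to 2-fold lower at P55 (1.93-fold). All 10 endothelial markers were detected on every array, with a median log2 difference of -0.89 at P55 and -0.05 at P69, and their part in the values of Eng and Acvrl1 was not tested. Acvr1b was at 1.03, 1.48, and 0.95, and Bmpr2 at 0.29, 0.37, and 0.66.

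The remaining pair of these receptors depended on the probe. Acvr1 was at 1.06, 1.15, and 0.73 by its brighter probe and at -0.53, 0.85, and 0.81 by the other, which was 2.61-fold and 2.53-fold higher than P42. Acvr2a was at -0.26, -0.97, and -1.06, and its other probe was below background at P69 (at least 5.72-fold lower). Both probes of Acvr2a were lower at P69, but to an extent that differed widely.

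The antagonists included members with large differences in both directions. Sostdc1, a secreted antagonist of BMP and Wnt signals also known from hair follicles, was at -1.67 at P42, 0.91 at P55, and 1.37 at P69. It was 6.01-fold and 8.21-fold higher than P42, and only 366 of 13249 and 127 of 14162 genes measured on both arrays were higher by more. The dimmer probe of Sostdc1 was below background at P42 and gave bounds of at least 3.99-fold and 9.44-fold. Sostdc1 was thus higher on both later arrays by either probe. Of the markers given above, 13 of 15 keratinocyte genes and Cd207 and Itgax of the 4 Langerhans and dendritic cell genes were higher on these arrays too, and their part in the values of Sostdc1 was not tested.

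Chrd, which encodes the BMP-binding protein chordin, was at -0.63 at P42, below background at P55, and at -3.16 at P69. It was at least 10.6-fold lower at P55 and 5.77-fold lower at P69, where 145 of 14162 genes were lower by more. At P55 it was the one member past the 10-fold limit of the study's methods, but the log2 bound of -3.41 became -3.02 with quantile normalization, -2.85 with the median of each array, -3.15 with no scaling, and -2.004 with normexp, which end that call. No member passed the limit at P69. The markers of fibroblasts, which make secreted antagonists in the dermis, summed to 92.1, 44.1, and 48.8, with 9, 8, and 10 of 10 detected. Of 9 with a value at P55, 1 was higher and 3 were lower, and of 10 at P69, 2 were higher and 3 lower. Their median log2 difference was -0.82 at P55 and 0.25 at P69. The part of fibroblasts in the values of Chrd was not tested. The 250 bases before an annotated transcript start of Chrd, at chr16:20732877-20733126 of GRCm38.p6 (plus strand), are shown as those of the one member lower on both arrays. They lie inside the full annotated locus at chr16:20731425-20742384, so other transcripts start farther upstream, and GGCGCC is in capitals:

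Chrd: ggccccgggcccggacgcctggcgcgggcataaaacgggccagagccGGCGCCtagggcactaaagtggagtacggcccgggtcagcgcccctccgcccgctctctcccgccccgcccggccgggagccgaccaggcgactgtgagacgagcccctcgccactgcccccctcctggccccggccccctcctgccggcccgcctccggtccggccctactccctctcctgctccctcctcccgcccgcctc

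Noggin (Nog), the antagonist best known for releasing follicles from BMP inhibition, was at -1.44, -2.80, and -1.77. It was lower at P55 (2.57-fold) and 1.25-fold lower at P69. The Nog difference at P55 was under 2-fold with quantile normalization (-0.95 on the log2 scale), the median of each array (-0.80), and normexp (-0.77). Fstl3, which binds activins, followed the same order at -0.40, -1.74, and -0.82, and was 2.53-fold lower at P55. That difference was under 2-fold with the median of each array. Nog and Fstl3 were thus lowest on the P55 array and close to the P42 level on the P69 array.

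The follistatin group held 2 genes that were highest at P69. Follistatin itself (Fst), which binds activins, was at -3.53, -2.81, and -1.90, or 3.09-fold higher at P69 than at P42, but under 2-fold with normexp (log2 difference 0.47). Fstl1, a secreted glycoprotein of connective tissue, was at -0.34, 0.21, and 1.71, or 4.13-fold higher. The Fstl1 level on the P69 array stood well above those on both other arrays, and 574 genes were higher by more. Mural cell markers summed to 5.37, 8.88, and 16.5 over the same arrays, with all 6 detected. Of these 6, 2 were higher and 1 was lower at P55, and 3 were higher and 0 lower at P69. Fibroblast markers summed to 92.1, 44.1, and 48.8. The part of mural cells and fibroblasts in the values of Fstl1 was not tested. Gremlin (Grem1) was at -3.21, -3.22, and -4.39, lower at P69 alone (2.27-fold). This was under 2-fold with quantile normalization (log2 difference -0.405), the median of each array (-0.66), and no scaling (-0.018). Ltbp1, which holds latent TGF-β in the matrix, was at 0.06, -0.55, and 0.68, under 2-fold from P42 with opposite signs on the later arrays.

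**Figure D3:**
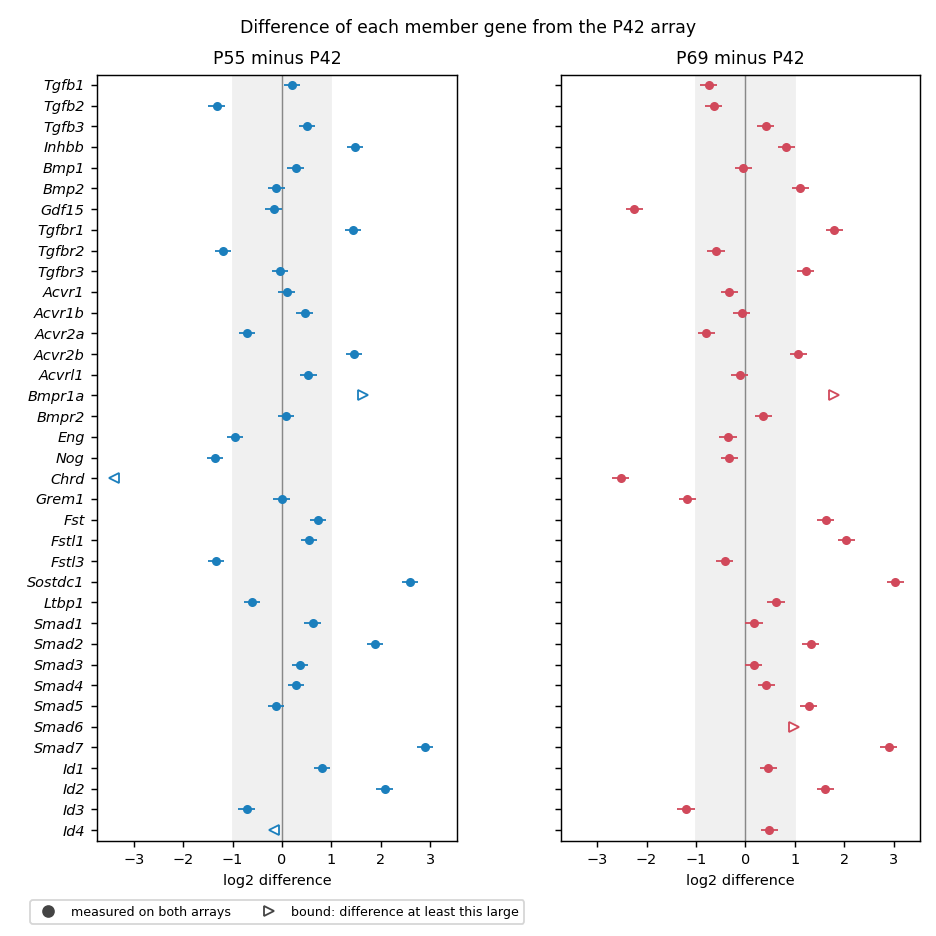
Log2 difference from the P42 array (horizontal axis) of each member with a value, at P55 (left, blue) and P69 (right, red). Bars are 1 technical SD of a difference (0.17 for every member, too small for dim ones). Triangles are bounds that point away from 0, and the gray band spans differences under 2-fold. Sostdc1 and Smad7 lie farthest to the right in both panels and Chrd farthest to the left.

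Of the Smads, the inhibitory Smad7 differed most. It was at -2.35 at P42, 0.55 at P55, and 0.56 at P69, which made the 2 later arrays nearly equal and 7.44-fold and 7.48-fold higher than P42. Only 244 of 13249 genes at P55 and 147 of 14162 at P69 were higher by more. Smad6, the other inhibitory Smad, was detected at P69 alone, at -3.46 (at least 1.97-fold over P42).

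Smad2, which carries TGF-β and activin signals, was at -1.25, 0.63, and 0.08. Both later levels were above P42, by 3.68-fold and 2.50-fold, the latter under 2-fold with normexp (log2 difference 0.90). Smad3, its partner in the same branch, was at 1.40, 1.77, and 1.57 by the brighter probe and lower by the other (-0.73 and -1.09), so the probes differed in direction. Smad4, the Smad shared by both branches, was at 2.75, 3.03, and 3.17 by one probe and at 1.12, -0.10, and 0.37 by the other, again in opposite directions.

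The BMP Smads were less uniform. Smad1 was at 3.11, 3.73, and 3.28 by its brighter probe, under 2-fold on both arrays. Its dimmer probe was at -3.84, -1.55, and -1.06, or 4.92-fold and 6.87-fold higher. Both probes of Smad1 were higher later, by very different amounts. Smad5 was at -0.72, -0.84, and 0.57, or 2.43-fold higher at P69, while its other probe was 1.15-fold lower there. At P69 all 7 Smads had a difference above 0 by their brighter or only probe, against 54.75% of all genes. Those of Smad1 and Smad3 (0.18 and 0.16) were within about 1 technical SD. They turned to -0.03 and -0.04 with the 75th percentile taken over probes detected on all arrays. The difference of Smad6 was a bound. By their other probes, Smad3 (-1.09), Smad4 (-0.75), and Smad5 (-0.21) were below 0, and Smad1 (2.78) was above.

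**Figure D4:**
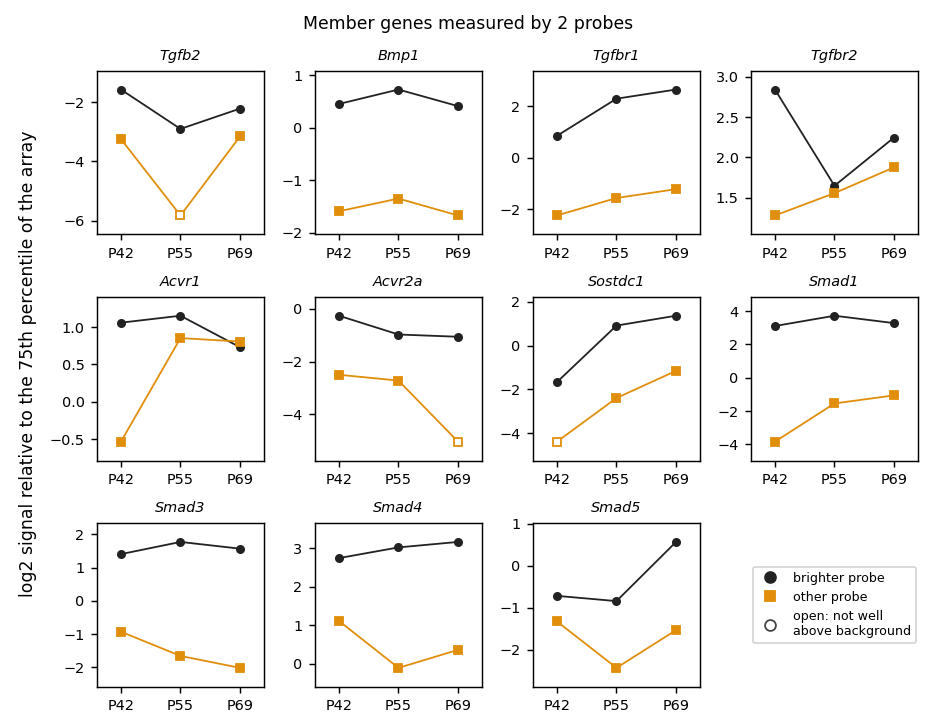
Levels of the 11 detected members with 2 probes on the P42, P55, and P69 arrays, as log2 signal relative to the 75th percentile of the array (vertical axis, a separate range in each panel), for the brighter (black) and the other probe (orange). Open symbols mark signals not well above background. The lines run in parallel for Bmp1 and in the same direction for Tgfbr1. They diverge for Smad3 and Smad4, approach each other for Tgfbr2, and cross for Acvr1.

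Probes of the same member often disagreed. Both probes were measured on both arrays for 9 members in each comparison, and they had opposite signs in 3 members at P55 (33.3%; Smad3, Smad4, and Tgfbr2) and in 6 at P69 (66.7%; these 3 with Acvr1, Smad5, and Tgfb2). Over all genes with such a pair the share was 32.3% of 3286 at P55 and 36.3% of 3588 at P69. The median gap between the probes of a member was 1.10 at P55 and 1.19 at P69 on the log2 scale, against 0.71 and 0.70 over all genes. This gap is several times the technical SD of a difference, and which probe reports the gene better was not tested.

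The Id genes encode inhibitors of basic helix-loop-helix factors and are known as targets of BMP Smads. They did not move together. Id2 was at 0.50 at P42, 2.58 at P55, and 2.12 at P69, or 4.22-fold and 3.07-fold higher on the later arrays. Id3 was at 1.81, 1.09, and 0.60, or 1.64-fold and 2.30-fold lower. At P69 this was under 2-fold with the median of each array (log2 difference -0.68) and with no scaling (-0.04). Id2 was thus lowest and Id3 highest at P42. Id1 was at 0.52, 1.33, and 0.99, higher by under 2-fold, and Id4 was dim (-3.89 at P42 and -3.41 at P69) and below background at P55. Id2 is also known as a gene of Langerhans and dendritic cells, of whose 4 markers Cd207 and Itgax were highest at P55 as Id2 was and Flt3 and Xcr1 were highest at P42, and the part of these cells in its values was not tested.

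Windows of 250 bases before an annotated transcript start were at hand for 29 members and are given here for Id2 and Id3, the Id genes that differed in opposite directions. They lie at chr12:25096093-25096342 (Id2, minus strand) and chr4:136143572-136143821 (Id3, plus strand) of GRCm38.p6, from RefSeq. Capitals mark GGCGCC in Id2 and, in Id3, CAGAC or its reverse complement GTCTG, the short word that Smad3 and Smad4 are known to bind:

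Id2: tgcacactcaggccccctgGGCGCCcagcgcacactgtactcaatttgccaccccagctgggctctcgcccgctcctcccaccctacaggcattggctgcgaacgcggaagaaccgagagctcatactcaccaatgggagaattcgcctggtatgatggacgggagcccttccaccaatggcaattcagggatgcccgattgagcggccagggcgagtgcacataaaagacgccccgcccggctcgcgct

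Id3: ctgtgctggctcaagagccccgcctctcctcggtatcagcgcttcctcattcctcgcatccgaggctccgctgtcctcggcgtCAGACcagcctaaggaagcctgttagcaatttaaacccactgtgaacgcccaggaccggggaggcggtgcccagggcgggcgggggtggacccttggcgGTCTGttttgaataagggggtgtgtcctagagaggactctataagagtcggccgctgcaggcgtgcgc

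Both strands of each window were searched for these words and for the palindrome GTCTAGAC, none of which holds another. The Id2 window held the GC-rich word once and the short word not at all, and for Id3 the short word was found at 2 places and the GC-rich word at none. Of the 29 members, 8 had GGCGCC in at least 1 window, 15 had the short word CAGAC, and none had the palindrome. Among all 32851 windows of this length, 9.59% held the GC-rich word, 42.2% the short word, and 0.167% the palindrome. The member counts are per gene, with up to 3 windows each, and these shares are per window, so they are not directly comparable. A match describes the letters of the window and is not a measured binding site.

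A further 60 genes of the pathway give the setting of these members. They numbered 12 higher and 11 lower of 49 with a value at P55 (all genes, 29.1% and 16.9%), and 10 higher and 8 lower of 49 at P69 (22.2% and 20.7%), with medians of 0.06 and -0.10 on the log2 scale. The third BMP Smad, Smad9, was among the 9 of these genes detected on no array. Lrrc32, which presents latent TGF-β on the cell surface, was at -2.20, -0.35, and -0.71, higher on both later arrays (log2 differences 1.85 and 1.49). Twsg1, a BMP-binding partner of chordin, was at -1.45, -0.11, and 0.15 and was higher as well (1.34 and 1.60). Nrros, which plays the part of Lrrc32 in macrophages and microglia, was at 5.16, 5.25, and 4.53 and stayed under 2-fold. The ubiquitin ligases of the receptors and Smads gave 0.73 and -0.04 (Smurf1) and 0.83 and 1.03 (Smurf2).

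The repressors Ski and Skil differed from one another, with -1.03 and -0.61 for Ski and 0.28 and 0.71 for Skil. The integrins that free TGF-β from its latent form gave -0.03 and -0.40 (Itgav) and 0.79 and 0.91 (Itgb8). The BMP antagonist Nbl1 gave 0.41 and -0.10, and Fkbp1a, which guards type I receptors, gave -0.07 and -0.46. Of the genes in this paragraph and Smurf1 and Smurf2, all but Ski at P55 and Smurf2 at P69 were under 2-fold.

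A list of 24 known targets of TGF-β and BMP signals, which includes Smad6, Smad7, the Id genes, and Bambi from the members, had 7 higher and 1 lower of 22 at P55 (all genes, 29.1% and 16.9%) and 7 higher and 4 lower of 23 at P69 (22.2% and 20.7%). Its medians were 0.08 and 0.47. Gata3, a transcription factor of T cells and of follicle epithelium, was at -1.66, 0.52, and 1.38 and was higher on both later arrays (log2 differences 2.18 and 3.04). Junb, which also responds early to stress and cell isolation, was at 6.13, 4.63, and 4.14 and was lower on both arrays (-1.498 and -1.99). Tgfbi, a matrix protein named for its induction by TGF-β, was at 4.11, 4.14, and 4.06, with differences under 1 technical SD. The cell cycle inhibitor Cdkn1a gave -0.39 and -0.83. Of the BMP targets Msx1 and Msx2, Msx1 was lower at P69 (-1.34) and below background at P55, and Msx2 gave -0.19 and -0.54. The targets thus included genes that were higher, lower, and under 2-fold on both later arrays.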

How the data were processed

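Expression was measured in sorted skin macrophages of 3 ages on 1-color Agilent mouse arrays, all on 1 slide. The intensities deposited by the authors are background-corrected spot signals on a linear scale from Feature Extraction 10.7, not normalized between arrays. The deposited log2 values are a second table that the authors made by steps not given in the sources used here, with each probe's median over the arrays at 0. It was used as an alternative only.

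Control spots and outlier spots were removed, the remaining spots of a probe were averaged, and the 75th percentile of the array was subtracted on the log2 scale. Detection required the software's call of well above background on 0.5 or more of a probe's spots. For a bound, the dim array entered with its floor, the lowest signal that still counted as detected there, unless the probe itself was brighter, and bounds under 1-fold were dropped. The 75th percentile was 21.7, 16.5, and 32.3 times the floor at P42, P55, and P69. Probes were named through RefSeq (GRCm38.p6), which named 26056 of 55681. With 1 array per age there was no test, and the number of arrays limits the precision. The technical SD came from detected probes with 10 or more spots.

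All 42 members are named, and those named from the other lists were fixed with the lists, and 1 of those genes is not reported here. The members and lists were chosen with earlier results of these data known. Alternatives covered scaling, background correction (normexp, offset 50, limma 3.58.1 in R 4.3.3), filters on dim probes, outlier spots, the probe of a gene, the fold, the value table, and the assignment of P55 and P69. Calculations used Python 3.11.15 and were tested on simulated data.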

Additional observations from a re-analysis of the deposited data

How the results depend on the processing

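Of the 29 differences of 2-fold or more, 26 kept their sign under all alternatives that gave a value. These 26 include Tgfbr2 at P55, where the other probe alone gave the opposite sign (0.28), which the median over its probes does not show. The other 3, all at P69, reversed with the deposited value table (Bmp2 -0.11, Tgfbr3 -0.035, and Smad5 -0.12) and with P55 and P69 exchanged (-0.11, -0.039, and -0.13), where the level of the P55 scanner file takes the place of P69. The call of 2-fold itself ended for 2 with the percentile of commonly detected probes, 4 with quantile normalization, and 6 with the median of each array. It ended for 3 with no scaling, 7 with normexp, 2 with the median over a gene's probes, and 13 with the value table or the exchange. It ended for none with outlier spots kept. The filters on dim probes could not end a call. Detection on both arrays left 26 of the 29 unchanged and gave no value for the bounds of Bmpr1a and Chrd. The looser filters left measured differences unchanged and could only enlarge a bound. Of the 7 members higher on both arrays, Acvr2b, Bmpr1a, and Smad2 lost a call with a scaling or with normexp. The counts of members moved as follows. Higher at P69, 12 became 26 with no scaling, 10 with the percentile of commonly detected probes, 8 of 36 with normexp or the exchange, and 8 of 25 with the value table. Lower at P69, 4 became 2 with the median of each array or no scaling, 8 of 25 with the value table, and 8 at 1.5-fold. Higher at P55, 8 became 15 with the median of each array and 13 of 25 with the value table. Lower at P55, 5 became 8 with the percentile of commonly detected probes, 1 with the median of each array, 3 with normexp, 9 with detection as a positive and significant signal, 9 with no filter, and 9 at 1.5-fold. At 10-fold, 1 member was lower at P55, and the other 3 counts were 0. The median log2 difference of members at P69 (0.41) was 0.21 with the percentile of commonly detected probes, 0.88 with the median of each array, 1.53 with no scaling, 0.18 with normexp, -0.11 with the value table, and 0.24 with P55 and P69 exchanged. At P55 (0.24) it was -0.14 with the percentile of commonly detected probes, 0.032 with quantile normalization, 0.83 with the median of each array, 0.54 with no scaling, 1.07 with the value table, and 0.41 with the exchange. The value table holds only some probes, and its P55 and P69 columns match the scanner files of the other age, so its shifts largely repeat the exchange. Except for quantile normalization, the scalings differ by 1 value per array, which moves every measured difference of that array alike. The median of all genes at P69 (0.15) moved too. It was -0.055 with the percentile of commonly detected probes, 0.65 with the median of each array, and 1.32 with no scaling. At P55 (0.22) it was -0.16, 0.86, and 0.52 in the same order. The cause of the shifts with quantile normalization and normexp was not tested. No array could be left out, since each age had 1. Signals near the floor, such as those of Bmpr1a, Smad6, Id4, Inhba, and Bmp5, limit what could be compared. No paired analysis was possible because each age had 1 array.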
